A study of Mus musculus with 9 samples.

Results

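Oncofetal genes are switched on in embryonic tissue, shut down as the tissue matures and found active again in many tumours. A group of 8 such mouse genes was followed here by symbol: Lin28a, Lin28b, Sall4, Hmga1, Hmga2, Igf2bp1, Igf2bp2 and Igf2bp3. Every probe set that the array's annotation gives to one of these symbols alone was taken, which gave 19 of 45101 probe sets and 6 of the 8 genes. Hmga1 and Igf2bp2 had no such probe set and were not analysed here. Of the 19 probe sets, 18 passed the filter on dim signal, which asked that 3 or more of the 9 arrays put it above their own 40th percentile. The exception was 1 of the 4 Hmga2 probe sets (1446196_at), which lay below that percentile on all 9 arrays.

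The study compared 3 groups of 3 mouse samples, each on its own Affymetrix 3-prime array. The first was cells labelled retinal progenitors, grown from embryonic stem cells (ESC-RPCs) and given 1 ng/ml DKK1, a secreted inhibitor of Wnt signalling, for 1 day. The second was the same cells with no DKK1, and the third was primary retinal progenitor cells (RPCs) dissociated from neural retina of C57 mice at postnatal day 1 and labelled as cultured. Both ESC-RPC groups descend from 1 embryonic stem cell line, 46C, made by gene targeting in E14Tg2a.IV cells. Both passed through 3 days as embryoid bodies with SB431542, a blocker of the receptors ALK4, 5 and 7, and a sort of the Sox1-positive cells (35.8%) on day 7. Both were cultured with 10 μM DAPT, which blocks Notch processing, plus 20 ng/ml bFGF, a fibroblast growth factor. In the submitters' design the DKK1-treated cells stand for a later stage than the untreated ones, with primary cells as the negative control for growth and tumour formation. Primary and ESC-derived cells therefore differed in strain, age and culture together, and these cannot be told apart.

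The genes meet in one developmental circuit. LIN28A and LIN28B are RNA-binding proteins that bind precursors of the let-7 microRNA and block their maturation, which holds mature let-7 down in early embryonic cells. Let-7 in turn silences Hmga2, Igf2bp1, Igf2bp3 and the Lin28 genes themselves through sites in their messenger RNAs. HMGA2 is a chromatin protein that binds AT-rich DNA and keeps fetal neural stem cells renewing themselves, and the IGF2BP proteins bind messenger RNAs, Igf2 among them, and protect or transport them. SALL4 is a zinc finger factor of pluripotent cells that recruits the NuRD repressor complex. In the mouse retina, Lin28b is known as an early progenitor gene that let-7 and other microRNAs silence as the tissue matures.

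The arrays measured messenger RNA and no mature microRNA, so let-7 enters here only as sequence. The 8 mouse let-7 members on the 5-prime arm (RefSeq, GRCm38.p6 set) are shown because their common seed, bases 2 to 8 and set in capitals, is what reads the target sites in these genes.
mmu-let-7a-5p: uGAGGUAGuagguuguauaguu
mmu-let-7b-5p: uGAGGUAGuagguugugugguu
mmu-let-7c-5p: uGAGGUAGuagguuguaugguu
mmu-let-7d-5p: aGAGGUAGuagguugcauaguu
mmu-let-7e-5p: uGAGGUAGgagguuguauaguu
mmu-let-7f-5p: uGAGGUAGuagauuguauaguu
mmu-let-7g-5p: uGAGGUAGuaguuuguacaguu
mmu-let-7i-5p: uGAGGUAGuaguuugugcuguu
All 8 carried 1 seed, GAGGUAG, within a length of 22 bases. Against let-7a, counted from 1 at the 5-prime end, let-7c differed by A19G alone, let-7e by U9G and let-7f by G12A. The most divergent was let-7i, with G12U, A17G, U18C and A19U.

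The terminal loop of the let-7 hairpin is where LIN28 proteins dock, and the letters GGAG are their known contact. Of 11 let-7 hairpins, 9 held GGAG between the mature arms, and Mirlet7b and Mirlet7c-2 did not. One of each kind is shown, with GGAG in capitals.
Mirlet7g (GRCm38.p6, chr9:106178840-106178927, plus strand): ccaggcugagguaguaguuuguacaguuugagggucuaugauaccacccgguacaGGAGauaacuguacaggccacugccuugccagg
Mirlet7b (GRCm38.p6, chr15:85707319-85707403, plus strand): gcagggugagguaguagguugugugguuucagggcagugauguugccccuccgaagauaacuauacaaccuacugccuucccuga
The same letters occurred somewhere in 44.5% of 1005 mouse hairpins, so the match alone describes the hairpin and does not mark a binding site.

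Per the design, primary cells were added to look for pathways behind growth and tumour formation in ESC-RPCs. All 6 measured genes were higher in ESC-RPCs than in primary cells, with or without DKK1. In none did either ESC-RPC group overlap the primary group. Lin28a, Lin28b and Sall4 passed the filter only through ESC-RPC arrays, which built a difference into their being tested. Only Hmga2, Igf2bp1 and Igf2bp3 can be set beside all genes. Of all genes, 29.0% with DKK1 and 29.5% without were higher than primary cells with no overlap. Lin28a and Sall4 were bright in every ESC-RPC array and dim in every primary array. Hmga2, Igf2bp1 and Igf2bp3 were measured in both, at 1.88 to 2.67 times the primary level in ESC-RPCs. Values below are MAS5 intensities, a linear brightness with one common trimmed mean on every array, in the order of replicates 1, 2 and 3. Log2 differences, standard errors (SE) and adjusted p-values come from limma over 13320 genes, and a gene was called at a Benjamini-Hochberg adjusted p below 0.05. These numbers read against a wide background: 26.0% of all genes rose in DKK1-treated ESC-RPCs and 26.1% in untreated ESC-RPCs, each against primary cells. Both comparisons use the same 3 primary arrays and are not independent of each other.

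Lin28a, the form of LIN28 typical of pluripotent cells, gave 759, 602 and 702 in DKK1-treated ESC-RPCs, 872, 666 and 743 in untreated ESC-RPCs, and 25.7, 8.76 and 27.5 in primary cells (1437752_at). The 3 primary values were all below their arrays' 40th percentiles, which lay between 44.7 and 52.9, so only a lower bound on the fold could be had. That bound sets the ESC-RPC mean against the primary arrays' 40th percentiles. On it Lin28a was at least 14.5-fold higher in DKK1-treated cells and at least 15.96-fold higher in untreated cells than in primary cells. The limma fit of the dim values gave an adjusted p of 1.25e-06 in DKK1-treated and 1.04e-06 in untreated cells. These p-values do not test the bounds. The second Lin28a probe set (1421749_at) gave 116 to 161 in DKK1-treated, 104 to 145 in untreated and 4.81 to 23.1 in primary cells, and it was at least 2.81-fold higher in DKK1-treated and at least 2.60-fold higher in untreated cells.

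Lin28b, the paralog whose protein also blocks let-7 maturation, was near the detection limit. It gave 57.6, 70.4 and 65.8 in DKK1-treated ESC-RPCs, 45.5, 69.2 and 62.6 in untreated ESC-RPCs, and 12.3, 38.8 and 15.4 in primary cells (1430803_at). One untreated array, replicate 1, lay below its 40th percentile, and so did all 3 primary arrays. Lin28b was at least 1.36-fold higher in DKK1-treated cells and at least 1.23-fold higher in untreated cells. The limma fit of the dim values gave an adjusted p of 0.00768 in DKK1-treated and 0.0121 in untreated cells, which does not test these small bounds. With a pseudocount of 32 added to every value, its log2 difference came to 0.86 in DKK1-treated cells, in place of 1.73, and 0.77 in untreated cells, in place of 1.58, and both stayed past the threshold.

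Sall4, a factor that pluripotent cells need to renew themselves, gave 1583, 1468 and 1698 in DKK1-treated ESC-RPCs, 1376, 1534 and 1716 in untreated ESC-RPCs, and 3.70, 17.9 and 2.95 in primary cells (1424152_at). The ESC-RPC arrays lay close together and the primary arrays were all below their 40th percentiles. Sall4 was at least 33.4-fold higher in DKK1-treated cells and at least 32.4-fold higher in untreated cells. The limma fit of the dim values gave an adjusted p of 7.40e-07 in DKK1-treated and 7.71e-07 in untreated cells. Its second probe set (1424153_s_at) gave bounds of at least 2.30-fold in DKK1-treated and at least 2.56-fold in untreated cells. Lin28a, Lin28b and Sall4 passed the filter only through their ESC-RPC arrays, so that a difference from primary cells was built into their being tested. Across all genes, 610 of 13320 (4.58%) had all 3 primary arrays below the 40th percentile.

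**Figure D1:**
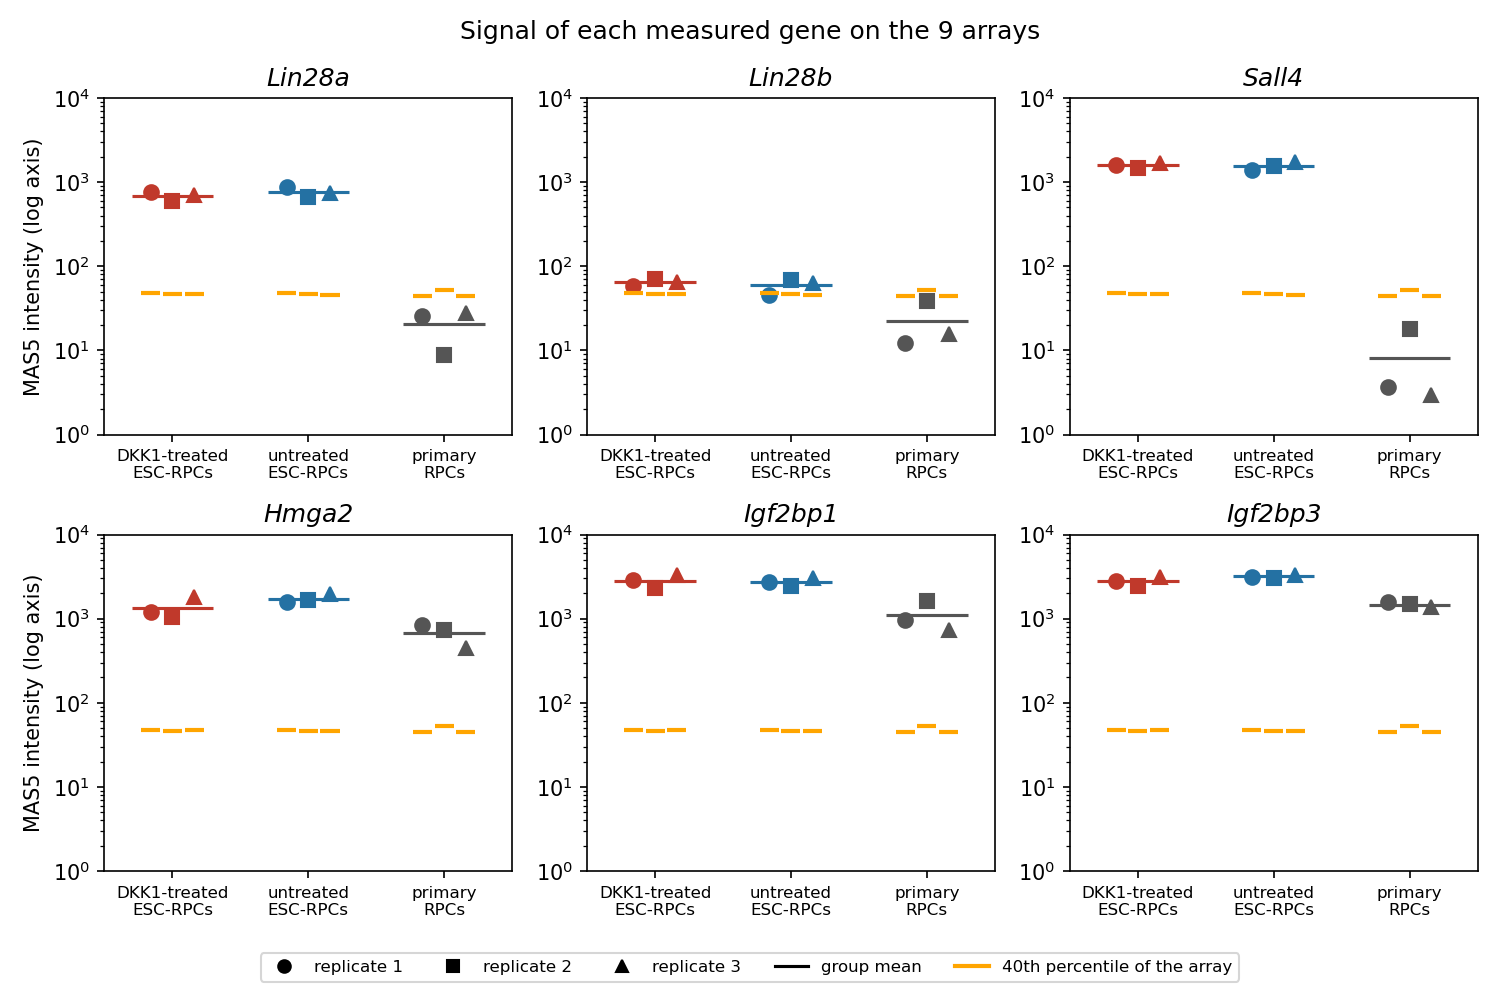
MAS5 intensity (log axis) of the probe set that represents each of the 6 measured genes, with 1 marker per array, a bar at each group mean and an orange tick at each array's 40th percentile. Lin28a and Sall4 sit far above the ticks in both ESC-RPC groups and below them in primary cells. Lin28b lies near the ticks in ESC-RPCs and below them in primary cells. Hmga2, Igf2bp1 and Igf2bp3 are above them on all 9 arrays.

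Hmga2, which encodes the AT-hook chromatin protein, gave 1199.7, 1036 and 1798 in DKK1-treated ESC-RPCs, 1559, 1684.5 and 1939.6 in untreated ESC-RPCs, and 839.8, 727 and 448 in primary cells (1450780_s_at). The lowest DKK1-treated array stood above the highest primary array by a smaller margin than the untreated arrays did. Hmga2 averaged 1344 ± 401 in DKK1-treated, 1728 ± 194 in untreated and 672 ± 202 in primary cells (SD, n = 3 each). It rose 2.01-fold in DKK1-treated cells (log2 difference 1.01, adjusted p = 0.00549) and 2.65-fold in untreated cells (log2 difference 1.41, adjusted p = 0.000748). The 3 kept Hmga2 probe sets had log2 differences of 0.76 to 1.20 in DKK1-treated and 1.29 to 1.58 in untreated cells, and every one was called.

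Igf2bp1, an RNA-binding protein that steadies messenger RNAs such as Myc, gave 2845, 2291 and 3339 in DKK1-treated ESC-RPCs, 2744, 2438 and 3009 in untreated ESC-RPCs, and 969.6, 1603 and 732 in primary cells (1455223_at). Primary replicate 2 was the highest of its group and still below every ESC-RPC array. Igf2bp1 rose 2.67-fold in DKK1-treated cells (log2 difference 1.42, adjusted p = 0.000671) and 2.60-fold in untreated cells (log2 difference 1.38, adjusted p = 0.000801). Its 4 probe sets did not give one answer. In the limma fit over all 29052 kept probe sets, 1459825_x_at had a log2 difference of 0.29 in untreated cells (SE 0.20, adjusted p = 0.26), with overlapping groups. This probe set gave 675, 671 and 665 in DKK1-treated, 559.9, 314 and 581 in untreated, and 390.0, 382 and 377 in primary cells. The x in its name is the manufacturer's mark for probes shared with other sequences.

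Igf2bp3, a family member known from human tumours, gave 2785, 2441 and 3092 in DKK1-treated ESC-RPCs, 3109, 3068 and 3327 in untreated ESC-RPCs, and 1570.4, 1484 and 1357 in primary cells (1422610_s_at). Replicates lay close together, and the SE of 0.10 was below the median SE of 0.15 over all genes. Igf2bp3 rose 1.88-fold in DKK1-treated cells (log2 difference 0.91, adjusted p = 3.17e-05) and 2.16-fold in untreated cells (log2 difference 1.11, adjusted p = 8.07e-06). All 6 of its probe sets were called, at log2 differences of 0.82 to 1.46 in DKK1-treated and 1.03 to 1.59 in untreated cells. Among them 1433732_x_at carries the same x mark as the Igf2bp1 probe set above.

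Of the 18 kept probe sets, 5, those of Lin28a, Lin28b and Sall4, passed the filter only through ESC-RPC arrays, and their calls are not read against a background. Of the other 13, for Hmga2, Igf2bp1 and Igf2bp3, 13 were called higher in DKK1-treated cells, where 23.3% of the 29052 kept probe sets were. In untreated cells 12 of the 13 were called higher, where 23.4% of kept probe sets were. Probe sets of 1 gene share its transcript and are not separate tests.

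**Figure D2:**
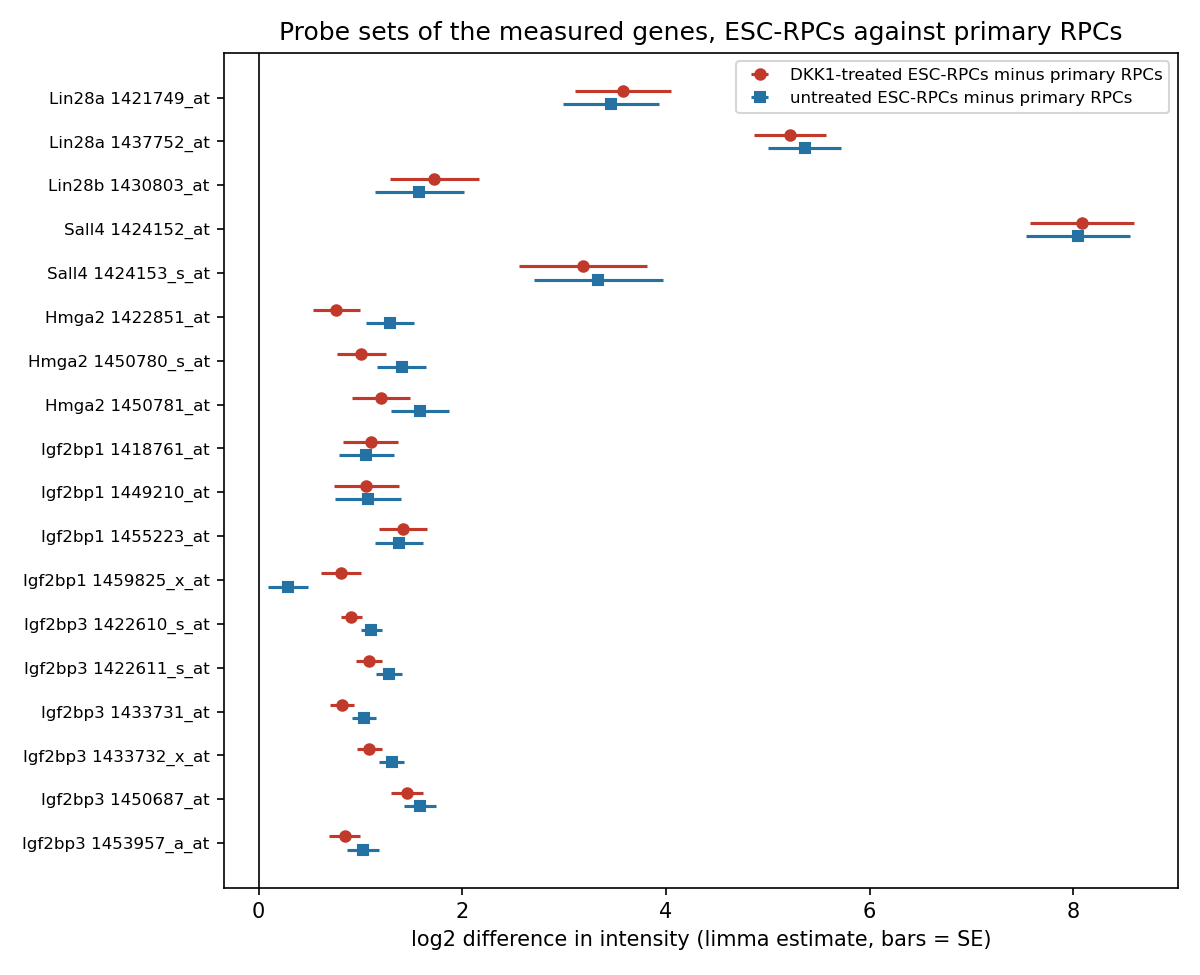
Log2 difference in intensity from primary cells (limma estimate, bars show the SE) for the 18 kept probe sets, with DKK1-treated ESC-RPCs in red circles above untreated ESC-RPCs in blue squares. The Lin28a and Sall4 estimates run from 3.19 to 8.09 and those of Lin28b from 1.58 to 1.73, all resting on dim primary values, while Hmga2, Igf2bp1 and Igf2bp3 lie between 0.29 and 1.59.

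The groups also differed in markers of several cell types, and in bulk RNA fewer cells of a type and less RNA per cell cannot be told apart. Of all genes 26.0% rose and 26.8% fell in DKK1-treated cells, and 26.1% rose and 26.9% fell in untreated cells. Of 12 genes of undifferentiated stem cells 11 rose in both ESC-RPC groups. Their summed intensity was 23114 to 24932 in DKK1-treated, 19935 to 23841 in untreated and 643 to 1009 in primary cells. Nanog, Zfp42, Dppa4, Tdgf1, Utf1 and Dppa3 lay below the 40th percentile on all primary arrays. They passed the filter only through ESC-RPC arrays, which built a difference into their being tested. Of 10 mesenchymal genes 9 rose in both, and the list summed to 20799 to 23903 in DKK1-treated, 20536 to 24619.8 in untreated and 2621 to 2965 in primary cells. In that list Lum, Twist1, Prrx1 and Postn passed the filter only through ESC-RPC arrays. All 7 measured genes of photoreceptor precursors fell in both, summing to 6602 to 7678 in DKK1-treated, 6454 to 7861 in untreated and 39646 to 56140.1 in primary cells. Of these, Crx, Nrl, Rom1 and Sag lay below the percentile on all ESC-RPC arrays and passed the filter only through primary arrays.

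The label of retinal progenitor was checked the same way. Of 8 measured retinal progenitor genes 6 fell in both ESC-RPC groups, among them Pax6 and Six3, and 2 rose. Their summed intensity was 10279 to 11969 in DKK1-treated, 10653 to 12384 in untreated and 30952 to 35132 in primary cells, and Rax lay below the 40th percentile on all DKK1-treated arrays. Sox1, the gene the ESC-RPCs were sorted by, lay below it on all primary arrays. Sox1 is in the neural progenitor list below. It passed the filter only through ESC-RPC arrays, which built a difference into its being tested. Six6, an eye field gene, averaged 63.2 ± 27.7 in DKK1-treated, 46.0 ± 12.9 in untreated and 4386 ± 440 in primary cells (SD, n = 3 each). Of 10 neural progenitor genes 4 rose and 2 fell in DKK1-treated and 5 rose and 2 fell in untreated cells, with sums of 73950.1 to 76233 in DKK1-treated, 77286 to 79661 in untreated and 59219.8 to 67362 in primary cells. Of 6 measured microglial genes 5 fell in DKK1-treated and 4 in untreated cells. The list summed to 112 to 215 in DKK1-treated, 146 to 178 in untreated and 843 to 1427 in primary cells. C1qa, C1qb, Ctss and Tyrobp lay below the percentile on all ESC-RPC arrays and passed the filter only through primary arrays. Of 6 measured endoderm and mesoderm genes 4 rose and 1 fell in DKK1-treated and 2 rose and 1 fell in untreated cells. The list summed to 1127 to 1343 in DKK1-treated, 1152 to 1293 in untreated and 465 to 904 in primary cells. In it Sox17, Gata4 and Foxa2 passed the filter only through ESC-RPC arrays. The part of any of these cell types in the levels of the Lin28, Sall4, Hmga2 and Igf2bp genes was not tested.

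The second question was what 1 day of DKK1 did to these genes. None of the 6 was called between DKK1-treated and untreated ESC-RPCs, and in all 6 the groups overlapped. Neither was any of the 13320 genes in this limma fit of 9 arrays, with 308 at an unadjusted p under 0.05, so the background of calls was 0%. Lin28a averaged 688 ± 79.3 in DKK1-treated and 761 ± 104 in untreated cells (SD, n = 3 each), a log2 difference of -0.14 (95% interval -0.95 to 0.66). Lin28b differed by 0.15 (interval -0.84 to 1.13) and Sall4 by 0.04 (interval -1.12 to 1.20). The interval for Igf2bp1 ran from -0.50 to 0.57 around 0.04. All 4 intervals hold 0 and reach well to either side of it, so equal levels were not shown.

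Hmga2 and Igf2bp3 had lower means after DKK1 and did not pass the test. Hmga2 differed by -0.40 on the log2 scale (SE 0.24, interval -0.94 to 0.14), and Igf2bp3 by -0.20 (SE 0.10, interval -0.42 to 0.02). Between arrays of the same replicate number, Hmga2 differed by -0.38, -0.70 and -0.11, and Igf2bp3 by -0.16, -0.33 and -0.11. All 3 kept Hmga2 probe sets, all 6 Igf2bp3 probe sets and 1 of 2 for Lin28a were lower in all 3 pairs, 10 of 18 in all, as were 17.8% of all kept probe sets. In the other direction stood 2 of 18, for Lin28b and Igf2bp1, and 17.4% of kept probe sets. The largest of these differences was that of Hmga2 1422851_at, with 759, 690 and 1151 in DKK1-treated and 1323, 928 and 1461 in untreated cells, at pair differences of -0.80, -0.43 and -0.34. Probe sets of 1 gene read its transcript in the same 3 pairs, so the 10 of 18 cannot be weighed against the 17.8%. The pairing by replicate number came from the values and not from the labels.

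Single arrays moved these values. Without DKK1-treated replicate 2 the Hmga2 difference was -0.23 and the Igf2bp3 difference -0.11, and without DKK1-treated replicate 3 they were -0.63 and -0.28. In the probe sets that represent Hmga2, Igf2bp1 and Igf2bp3, replicate 2 was the lowest and replicate 3 the highest DKK1-treated array. This order did not hold in every probe set: replicate 1 was lowest for Igf2bp3 1433731_at and 1422611_s_at and highest for Igf2bp1 1449210_at and 1459825_x_at. The summed intensity of 9 proliferation genes had the order of the representing probe sets, with 42065, 37890.4 and 44895 in DKK1-treated against 43650, 43767 and 46866 in untreated cells, and its part in these values was not tested. With the replicate number as a block over the 6 ESC-RPC arrays, limma called 65 genes (0.488%) and none of the 6. In that fit Hmga2 had an adjusted p of 0.0882 and Igf2bp3 of 0.107. In a separate blocked limma fit over all 29052 kept probe sets, the adjusted p was 0.0568 for Hmga2 1422851_at, 0.126 for Hmga2 1450780_s_at and 0.146 for Igf2bp3 1422610_s_at.

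Means of cell type markers also differed, and no marker was called in the fit of 9 arrays. Higher means in DKK1-treated than in untreated cells were found for 11 of 12 stem cell and 5 of 6 endoderm and mesoderm genes. Lower means were found for 8 of 10 neural progenitor, 6 of 8 retinal progenitor and 8 of 9 proliferation genes. The other marker lists were split more evenly. Over all genes the median log2 difference was -0.0018. In the blocked fit of 6 arrays over genes, the stem cell genes Tdgf1 (log2 difference 0.57, adjusted p = 0.0203) and Zfp42 (0.41, adjusted p = 0.0186) and the eye field gene Six3 (0.53, adjusted p = 0.00602) rose. Fgf15, a growth factor of retinal progenitors, fell by 0.25 (adjusted p = 0.037), and Hes5, a Notch target, fell by 0.22 (adjusted p = 0.04999). Their part in the Hmga2 and Igf2bp3 values was not tested.

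Igf2bp1 pointed both ways. Of its probe sets 3 differed by -0.02 to 0.04 between DKK1-treated and untreated cells. The fourth, 1459825_x_at, was higher in all 3 pairs, by 0.27, 1.10 and 0.20, with groups that did not overlap, as for 5.07% of kept probe sets. The middle value rests on untreated replicate 2, which at 314 was the lowest of the 9 arrays for this probe set. The 2 Lin28a probe sets also disagreed in sign, at -0.14 and 0.12, and the 2 Sall4 probe sets at 0.04 and -0.15.

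**Figure D3:**
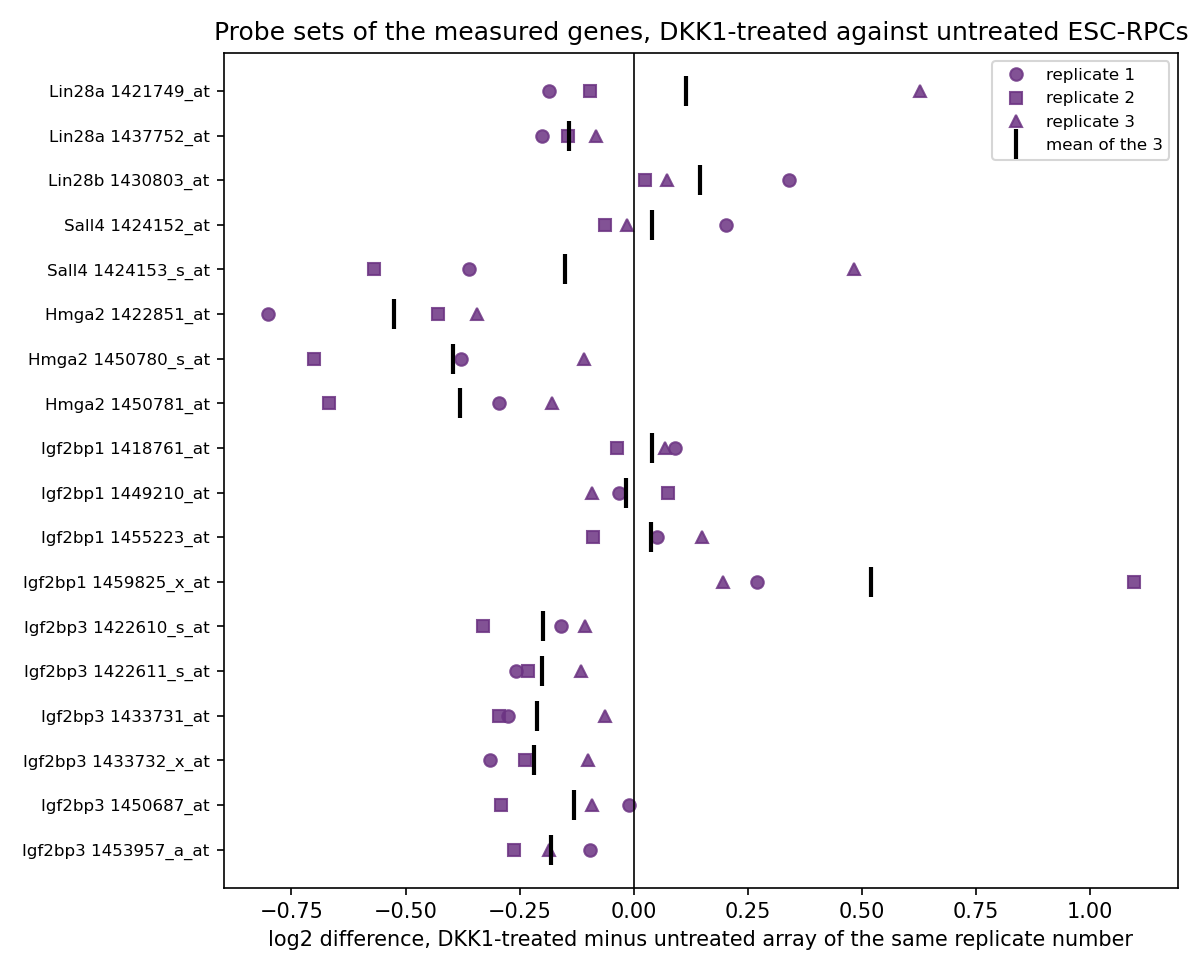
Log2 difference between DKK1-treated and untreated ESC-RPC arrays of the same replicate number for the 18 kept probe sets, with 1 marker per replicate number and a bar at the mean of the 3. All markers of Hmga2 and Igf2bp3 lie left of zero, those of Lin28b lie right of it, those of Lin28a, Sall4 and Igf2bp1 fall on both sides, and none of the genes was called.

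The surrounding pathway was read from 7 gene lists, described by counts and medians beside those of all 13320 genes, whose median log2 difference from primary cells was -0.01 for both ESC-RPC groups (-0.02 with genes of dim groups at their bound). Of all genes 26.8% fell in DKK1-treated and 26.9% in untreated cells, beside the rising shares given above. The list of let-7 and microRNA processing factors held 24 measured genes, of which 4 rose and 3 fell in DKK1-treated cells and 4 rose and 6 fell in untreated cells. Its median stood at 0.08 with DKK1 treatment and 0.09 in untreated cells. Trim71, a let-7 target whose protein curbs the microRNA pathway in stem cells, averaged 1117 ± 183 in DKK1-treated, 1128 ± 109 in untreated and 187 ± 84.0 in primary cells (SD, n = 3 each). Trim71 rose by 2.65 on the log2 scale in DKK1-treated cells (adjusted p = 1.17e-05) and by 2.68 in untreated cells (adjusted p = 1.12e-05). The 4 that rose in each group were Prkra, Ago1, Trim71 and Ddx17.

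The enzymes of microRNA maturation act upstream of the mature let-7. Dgcr8, the partner of Drosha in the first cut of the primary transcript, fell by 0.45 in DKK1-treated cells (adjusted p = 0.0119) and by 0.52 in untreated cells (adjusted p = 0.00542). Dicer1, which makes the second cut, averaged 1115 ± 99.1 in DKK1-treated, 949 ± 24.1 in untreated and 1329 ± 248 in primary cells (SD, n = 3 each). Its log2 differences from primary cells were -0.24 in DKK1-treated (adjusted p = 0.145) and -0.47 in untreated cells (adjusted p = 0.0114). Ago4, one of the Argonaute proteins that hold the mature microRNA, fell by 1.31 in DKK1-treated cells (adjusted p = 0.000499) and by 1.43 in untreated cells (adjusted p = 0.000281). Drosha itself differed by 0.23 in DKK1-treated (adjusted p = 0.102) and 0.17 in untreated cells (adjusted p = 0.237) and was not called. Xpo5, Tarbp2, Ago2 and Ago3 were not called in either group, and Ago1 and Prkra rose, as given above.

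Of 30 listed let-7 targets 25 were measured, with 9 higher and 6 lower in DKK1-treated cells and 10 higher and 6 lower in untreated cells. Their median stood at 0.22 with DKK1 treatment and 0.33 in untreated cells. Ccnd2, a D-type cyclin, averaged 10044 ± 1102 in DKK1-treated, 11274 ± 1128 in untreated and 605 ± 192 in primary cells (SD, n = 3 each). Ccnd1, another D-type cyclin, ran the other way, at 3711 ± 698 in DKK1-treated, 3980 ± 555 in untreated and 12525 ± 2968 in primary cells. Myc rose by 1.14 on the log2 scale in DKK1-treated cells (adjusted p = 0.000453) and by 1.36 in untreated cells (adjusted p = 0.000138). The orphan nuclear receptor gene Nr6a1 rose by 1.17 in DKK1-treated and 1.39 in untreated cells. Mycn averaged 2811 ± 268 in DKK1-treated, 2971 ± 268 in untreated and 3116 ± 300 in primary cells, and was not called.

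The insulin-like growth factor axis is the best known client of the IGF2BP proteins. Of 13 measured genes 5 rose and 5 fell in DKK1-treated cells, and 5 rose and 4 fell in untreated cells. Igf2, the fetal growth factor, averaged 4380 ± 64.2 in DKK1-treated, 4377 ± 119 in untreated and 2353 ± 583 in primary cells (SD, n = 3 each). It rose by 0.92 on the log2 scale in DKK1-treated cells (adjusted p = 0.000262) and by 0.92 in untreated cells (adjusted p = 0.000265). H19 was not analysed here. Igfbp5, a secreted binding protein for the growth factors, rose by 3.59 in DKK1-treated and 3.58 in untreated cells, and Igfbp2 and Igfbp3 rose in both as well. Igfbp7 fell by 2.62 in DKK1-treated and 2.53 in untreated cells. Igf1r, the receptor and itself a let-7 target, fell by 0.45 in DKK1-treated cells (adjusted p = 0.031) and by 0.51 in untreated cells (adjusted p = 0.0181).

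Among 16 measured genes of the Sall family and NuRD subunits, 8 rose and 3 fell in DKK1-treated cells, and 8 rose and 2 fell in untreated cells. Sall1, a paralog of Sall4, averaged 1899 ± 355 in DKK1-treated, 1526 ± 372 in untreated and 97.0 ± 64.8 in primary cells (SD, n = 3 each). Sall1, Sall2 and Sall3 rose in both ESC-RPC groups, at log2 differences of 4.48, 1.12 and 3.23 in DKK1-treated and 4.15, 1.12 and 3.22 in untreated cells. The NuRD helicase gene Chd3 rose by 1.49 in DKK1-treated and 1.40 in untreated cells. The methyl-DNA reader Mbd2 fell by 0.94 in DKK1-treated and 1.01 in untreated cells. Between DKK1-treated and untreated cells Sall1 differed by 0.33 and was called in the blocked fit of 6 arrays (SE 0.05, adjusted p = 0.0459) but not in the fit of 9.

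Of 9 measured other high mobility group genes, 2 rose and 3 fell in each ESC-RPC group, with medians of -0.09 in DKK1-treated and -0.07 in untreated cells. Hmgn3, a nucleosome-binding protein, fell by 1.03 in DKK1-treated cells (adjusted p = 4.33e-07) and by 1.02 in untreated cells (adjusted p = 4.51e-07). Hmgb2 fell by 0.28 in DKK1-treated and 0.25 in untreated cells. Tfam, the packaging protein of mitochondrial DNA, fell by 0.56 in DKK1-treated and 0.54 in untreated cells. Hmgn5 rose by 0.39 in DKK1-treated and 0.48 in untreated cells.

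Of 15 measured further oncofetal and fetal growth genes, 10 rose and 1 fell in each ESC-RPC group, with medians of 0.62 in DKK1-treated and 0.64 in untreated cells. In this list Peg10 and Trap1a passed the filter only through ESC-RPC arrays. Trap1a, a tumour rejection antigen of the mouse, averaged 1732 ± 178 in DKK1-treated, 1452 ± 143 in untreated and 6.35 ± 8.48 in primary cells (SD, n = 3 each), at least 36.5-fold higher in DKK1-treated and at least 30.6-fold higher in untreated cells. The imprinted gene Peg3 rose by 1.58 in DKK1-treated and 1.45 in untreated cells, and the growth factor gene Ptn by 2.20 in DKK1-treated and 2.16 in untreated cells. Mdk, the growth factor most closely related to Ptn, was the one that fell, to 3282 ± 409 in DKK1-treated and 3929 ± 170 in untreated cells, against 8253 ± 802 in primary cells. Between DKK1-treated and untreated cells Mdk differed by -0.27 and was called only in the blocked fit (SE 0.05, adjusted p = 0.04999).

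Of 22 measured genes, listed as RNA-binding proteins of messenger RNA particles, 10 rose and 3 fell in DKK1-treated cells. In untreated cells 13 rose and 3 fell. Their median stood at 0.15 with DKK1 treatment and 0.21 in untreated cells. Msi2, a regulator of translation in stem cells, rose by 1.11 in DKK1-treated and 1.01 in untreated cells. Qk rose by 0.98 in DKK1-treated and 0.94 in untreated cells, and Fxr1, a relative of the fragile X gene, by 0.76 in DKK1-treated and 0.93 in untreated cells. G3bp2, a stress granule protein, rose by 0.52 in DKK1-treated and 0.49 in untreated cells. Fmr1, Stau1 and Msi1 fell in both. In none of the 7 lists was a gene called between DKK1-treated and untreated cells in the fit of 9 arrays. In the blocked fit, besides Sall1 and Mdk, the let-7 target Nap1l1 fell by 0.19 (SE 0.03, adjusted p = 0.037).

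**Figure D4:**
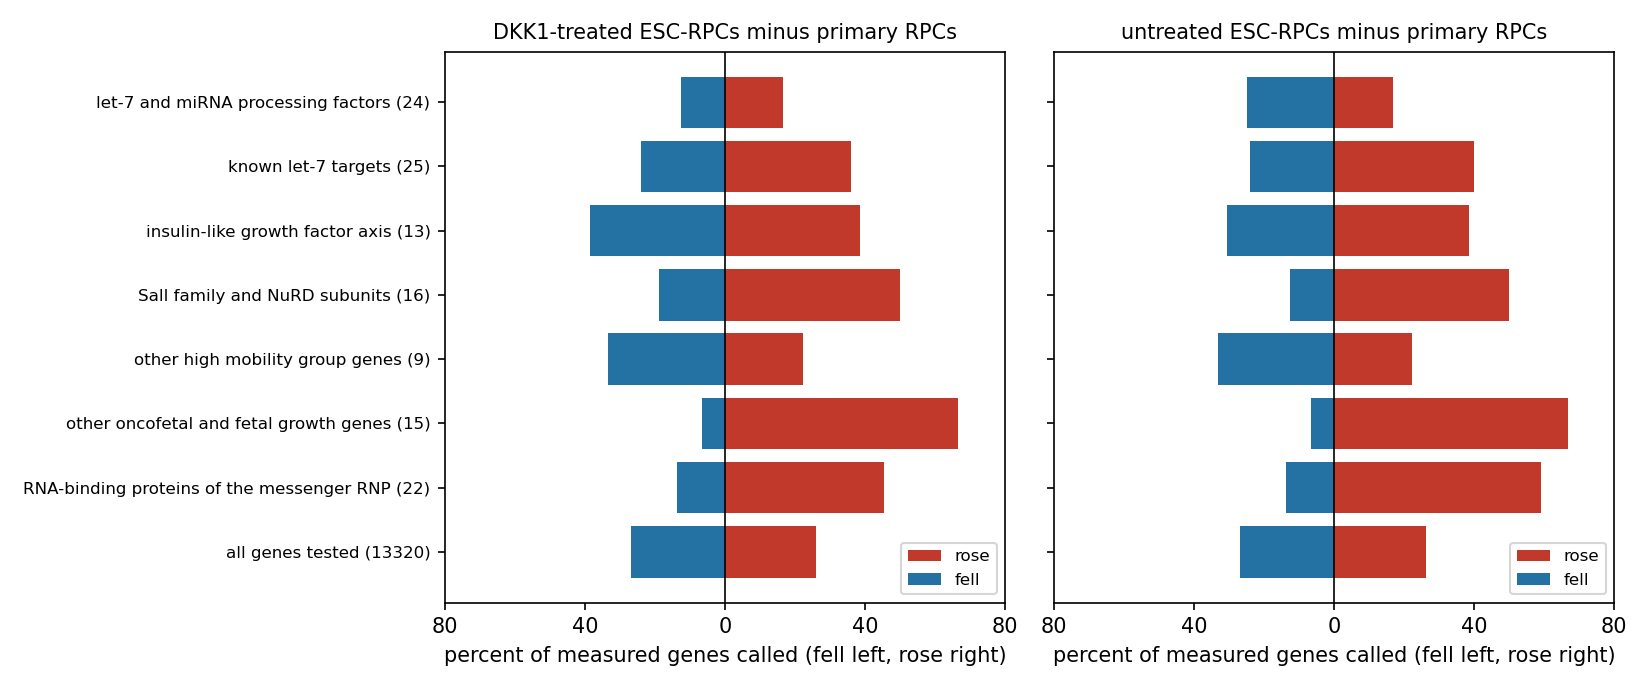
Percent of the measured genes of each list that rose (red, right) or fell (blue, left) in DKK1-treated (left panel) and untreated ESC-RPCs (right panel) against primary cells, with all 13320 genes in the bottom row and the number measured in brackets. The further oncofetal genes lean furthest to the right, with 10 of 15 higher. The other high mobility group genes lean left in both panels. Of 24 let-7 and miRNA processing factors, 4 were higher and 6 lower in untreated cells, beside 26.9% of all genes lower. The median log2 difference of these factors there was 0.09.

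For each measured gene, the genes with the closest profile over the 9 arrays were taken by the root mean square difference of log2 values, each gene centred on its own mean. Igf2bp3 lay closest to Yap1 (0.08), Cyb5b (0.09) and Rai14 (0.10), and Igf2bp1 to Polr3g (0.11), AU020206 (0.14) and Lactb2 (0.14). Hmga2 lay closest to Vgll2 (0.12), A330008L17Rik (0.19) and Peg12 (0.20). Lin28a lay closest to Gm20083 (0.15), Zfp936 (0.30) and Pla2g1b (0.34), Lin28b to Smagp (0.20), Wwox (0.21) and Gsta3 (0.22), and Sall4 to Pax3 (0.37), Scrg1 (0.41) and Col3a1 (0.47). The 9 arrays share 3 groups, and any gene with a like step between ESC-RPCs and primary cells comes close on this measure. For Lin28a, Lin28b and Sall4 the 3 primary values lie below the 40th percentile, so differences among dim values also enter the distance and the ranks there are loose.

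Promoter windows of 250 bases before to 50 after a gene's start were available for 6 of the 8 genes, in 7 windows (RefSeq, GRCm38.p6). Sall4 and Igf2bp1 had no entry. The motifs searched, on both strands, were the GC box GGGCGG, the TCF site CTTTGAA through which Wnt signalling acts, the E box CACGTG read by MYC, the octamer ATGCAAAT, the Sox site CATTGTT, the CCAAT box CCAAT and the TATA box TATAAA. The 3 windows below are shown because their genes span the patterns above, with GC box, TCF site and E box letters in capitals.
Lin28a (chr4:134018767-134019066, minus strand): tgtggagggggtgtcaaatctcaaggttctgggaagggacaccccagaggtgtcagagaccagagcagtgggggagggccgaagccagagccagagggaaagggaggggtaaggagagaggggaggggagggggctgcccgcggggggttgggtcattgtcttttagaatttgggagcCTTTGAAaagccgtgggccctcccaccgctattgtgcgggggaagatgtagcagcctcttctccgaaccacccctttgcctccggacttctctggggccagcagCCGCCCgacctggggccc
Hmga2 (chr10:120476420-120476719, minus strand): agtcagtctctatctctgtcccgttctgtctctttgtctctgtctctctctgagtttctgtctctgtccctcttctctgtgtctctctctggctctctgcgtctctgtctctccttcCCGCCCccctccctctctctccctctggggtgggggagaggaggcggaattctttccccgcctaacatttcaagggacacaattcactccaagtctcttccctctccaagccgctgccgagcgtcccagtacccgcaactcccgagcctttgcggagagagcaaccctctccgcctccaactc
Igf2bp3 (chr6:49214905-49215204, minus strand): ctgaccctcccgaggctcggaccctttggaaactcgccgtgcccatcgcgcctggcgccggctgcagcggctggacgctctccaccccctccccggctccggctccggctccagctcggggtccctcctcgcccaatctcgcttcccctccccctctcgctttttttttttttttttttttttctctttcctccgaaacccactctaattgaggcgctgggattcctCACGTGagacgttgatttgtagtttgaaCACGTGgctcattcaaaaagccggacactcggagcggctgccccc
The Lin28a window held 1 TCF site and 1 GC box, the Hmga2 window 1 GC box, and the Igf2bp3 window 2 E boxes and no GC box. The Lin28a and Igf2bp3 windows lie inside the annotated span of their genes, and the Hmga2 window at its edge. Of the 7 windows here, 2 of which overlap at Hmga1, 5 held the GC box, against 35.7% of 32851 mouse promoter windows. The TCF site was in 1, against 5.1%, and the E box in 2, against 7.2%. The octamer was in 2, both at Hmga1, against 1.7%, and the CCAAT box in 2, against 37.4%. The Sox site and the TATA box were in 0, against 3.8% and 13.6%. These matches are letters in a window and were not tested as sites.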

How the data were processed

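Total RNA of 9 samples was amplified and hybridised as biotin-labelled cRNA, per the labels' protocols. The deposited values are linear intensities, made by the authors with MAS5, per the submitters' processing notes. Version, settings and genome build are not given in the sources used here. On every array the mean after trimming 2% at either end was 500. Arrays carry no read depth, and their number limits the precision. The deposited table had 0 columns of other samples.

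Probe sets were named from the platform annotation. Of 45101 probe sets, 64 were controls, 932 matched several genes and 9160 had no gene. Of 29052 kept, 24773 had 1 gene, and each of 13320 genes was read from its brightest kept probe set by mean log2 value. Log2 values were fitted with limma 3.58.1 in R 4.3.3 over 9 arrays, with 1 mean per group, an intensity trend and two-sided moderated tests. P-values were adjusted by the Benjamini-Hochberg method over all genes. A group with every array below its 40th percentile has a bound only, and its fold is given as "at least", against those percentiles. The adjusted p-values test the log2 difference of the values themselves and not that bound.

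The 8 genes and all lists were chosen with earlier results of these data known. Named besides the 8 were up to 4 genes per list with the smallest adjusted p in untreated against primary cells, and Igf2, H19, Trim71, Dicer1, Myc, Mycn, Nanog, Pou5f1, Ccnd2 and Igf1r. Some further list genes were named after their values were seen. The labels call the samples of each group independent biological repeats. Arrays of the same number in both ESC-RPC groups deviated together, with correlations across genes of 0.123 to 0.318, against -0.234 to 0.0681 for different numbers, and were taken as paired. This pairing comes from the values and not from the labels. Correlations with primary arrays of the same number were -0.0433 to -2.36e-06 for untreated and -0.0399 to -0.0156 for DKK1-treated arrays, so primary arrays were not paired. Alternatives covered normalisation, filter, pseudocount, the choice of probe set, trend, arrays in the fit, the replicate block and leaving out each array.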

Additional observations from a re-analysis of the deposited data

How the results depend on the processing

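Hmga2, Igf2bp1 and Igf2bp3 stayed called and higher in DKK1-treated and in untreated ESC-RPCs against primary cells under all 20 alternatives. Lin28a, Sall4 and Lin28b were also called under each alternative that gave a value, 19 for Lin28b, which did not pass the filter at the 60th percentile, but they were tested only because their ESC-RPC arrays were bright, so this says nothing on stability. The highest adjusted p, 0.0473, was that of Lin28b in untreated cells without untreated replicate 2. A pseudocount of 32 lowered the log2 difference of Sall4 to 5.35 in DKK1-treated and 5.31 in untreated cells. No gene of the 6 was called between DKK1-treated and untreated cells under any alternative.

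Genes called between DKK1-treated and untreated cells numbered 1 without the intensity trend and 65 with the replicate block over the 6 arrays (0 with the block over 9), and the block changed no call of the 6. Fitting all kept probe sets raised the calls to 13823 in DKK1-treated and 13798 in untreated against primary cells, since more features were tested. Leaving out each array in turn gave 0 to 0 genes after DKK1, 5931 to 7308 in DKK1-treated against primary and 5942 to 7286 in untreated against primary cells. Hmga2, Igf2bp1 and Igf2bp3 stayed called against primary cells each time, and none of the 6 was called after DKK1. Lin28a, Lin28b and Sall4 are left out of that count, since a difference from primary cells was built into their being tested.

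Between DKK1-treated and untreated cells 6 values changed sign. With its probe sets averaged, Sall4 was -0.0541. Leaving out 1 array each, Sall4 ranged over -0.0382 to 0.121, with -0.0106 when DKK1-treated replicate 3 was left out and the lowest without untreated replicate 1. Igf2bp1 ranged over -0.0915 to 0.180, lowest without DKK1-treated replicate 3, and was -0.0415 when untreated replicate 2 was left out. Lin28b ranged over -0.0322, without untreated replicate 1, to 0.271. None was called, and the cause was not tested. Quantile normalisation and median centring shifted the median gene by at most 0.07 on the log2 scale.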
